A study of Mus musculus with 10 samples.

Results

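The 10 Krüppel-like factor (KLF) genes Klf2, Klf3, Klf4, Klf5, Klf6, Klf7, Klf10, Klf11, Klf13 and Klf15 were selected by gene symbol from a table of 18725 genes, and all 10 passed the filter on low counts that 14862 genes passed. Klf9, a KLF gene that is induced by triiodothyronine (T3), was left out of the set and is given only for comparison. RNA was sequenced from 5 hypothyroid and 5 euthyroid libraries of mouse cochlea. By the labels, outer sulcus was dissected together with the spiral ligament under it from C57BL/6J mice at postnatal day 10. Hypothyroid pups came from dams that drank water with methimazole (0.05%), sucrose (5.0%) and, at 1.0%, sodium perchlorate monohydrate from embryonic day 17 through lactation to postnatal day 10. Euthyroid pups came from dams given vehicle over the same period. Methimazole blocks thyroid hormone synthesis and perchlorate blocks iodide uptake, so the treatment bears on the whole pup and the model is not specific to the ear. How far hormone levels fell was not measured here. The study asked how thyroid hormone acts on the developing outer sulcus.

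The labels do not say whether each library came from a separate animal, and the litters are not given in the sources used here. P-values therefore measure the spread between these libraries, and litter and treatment cannot be told apart. The extraction text in the labels names articular cartilage of the femoral head, whereas every other label names the cochlea. Of 5 markers of spiral ligament fibrocytes, 2 rose, 2 fell and 1 did not pass, and they summed to 6900 to 8960 CPM in hypothyroid and 11800 to 15100 CPM in euthyroid libraries (CPM are read counts scaled to a common library size, with TMM factors for composition). Among them, Otor had 5275 to 7094 CPM in hypothyroid and 5129 to 5770 CPM in euthyroid libraries, Otos 25.1 to 80.5 CPM in hypothyroid and 3081 to 5038 CPM in euthyroid libraries, and Coch 196 to 285 CPM in hypothyroid and 2165 to 3700 CPM in euthyroid libraries. Cartilage markers (2 of 4 lower, 1 higher) summed to 12200 to 13100 CPM in hypothyroid and 30200 to 35300 CPM in euthyroid libraries. Bone markers (5 of 5 lower) summed to 73 to 106 CPM in hypothyroid and 1010 to 1530 CPM in euthyroid libraries. Which tissue these levels came from was not tested. Library totals were 19298145 to 19407592 estimated counts in hypothyroid and 19781921 to 20063961 in euthyroid libraries. Markers of the root cells and outer sulcus were detected, at a summed level of 1730 to 2450 CPM in hypothyroid and 4610 to 5250 CPM in euthyroid libraries, and 5 of the 6 fell. Macrophage markers (5 of 6 higher) summed to 243 to 291 CPM in hypothyroid and 169 to 197 CPM in euthyroid libraries. Smooth muscle and pericyte markers (1 of 4 higher, 2 lower) summed to 412 to 499 CPM in hypothyroid and 959 to 1210 CPM in euthyroid libraries. Melanocyte markers (4 of 4 higher) summed to 856 to 1640 CPM in hypothyroid and 396 to 604 CPM in euthyroid libraries. The part of these shifts in the results was not tested. In bulk tissue, fewer cells of a type and less RNA per cell cannot be told apart.

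KLF proteins are transcription factors with zinc fingers at the carboxyl end that read GC-rich boxes and CACCC boxes in DNA, the same kinds of sites that the related SP factors read. Outside the zinc fingers they differ. Klf2, Klf4, Klf5, Klf6 and Klf7 carry activating regions, Klf3, Klf8 and Klf12 recruit the corepressor CtBP, and Klf9, Klf10, Klf11, Klf13, Klf14 and Klf16 recruit the corepressor Sin3A. Several of them respond quickly to growth factors, blood flow, transforming growth factor beta (TGF-beta) or glucocorticoids, which makes them readouts of signals that reach a tissue.

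The 10 genes moved in different directions in hypothyroid tissue. Klf5, Klf6, Klf10, Klf11 and Klf15 rose, Klf2 and Klf13 fell, and Klf3, Klf4 and Klf7 did not pass the test (edgeR quasi-likelihood test, Benjamini-Hochberg adjusted p under 0.05 over all genes tested). The 7 genes called of 10 stand beside 71.8% of all tested genes called in either direction, 37.7% higher and 34.1% lower, so the count is near the background. The same shares stand beside the TMM counts of every other gene list in this text. For list counts with library sizes alone, the shares over all tested genes were 58.2% higher and 19.7% lower. Libraries of the groups did not overlap in 5 of the 10 genes, namely Klf2, Klf6, Klf11, Klf13 and Klf15, beside 57.9% of all tested genes, 29.4% higher and 28.5% lower. The median log2 fold change, hypothyroid over euthyroid, was 0.16 for the 10 genes and 0.04 over all tested genes. Klf13 fell 2.43-fold, more than 88.3% of tested genes in absolute log2 terms, and Klf11 rose 2.21-fold, more than 86.0%.

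The way the libraries were scaled set the call of the smaller changes. The TMM method, used for the values given here, equalises the bulk of genes between libraries, and left a median of 0.04 over all genes on the log2 scale. That median was 0.30 with library sizes alone and 0.15 with upper quartile factors, and the share of called genes that were higher went to 74.7% and 62.5%, against 52.5% with TMM. Library sizes alone called 8 of the 10 genes higher and 2 lower, beside 77.9% of all genes called, 58.2% higher and 19.7% lower. Upper quartile factors called 7 higher and 2 lower, beside 74.4% of all genes, 46.5% higher and 27.9% lower. DESeq2 called 4 higher and 2 lower, beside 71.2% of all genes, 35.6% in each direction. With limma on log2(TPM + 0.1), 8 were higher and 2 lower, beside 75.4% of all genes, 53.7% higher and 21.7% lower. The directions of all 10 genes were the same under every setting tried. Klf3, Klf4 and Klf7 had log2 fold changes of 0.12, 0.18 and 0.10 with TMM and were called higher with library sizes alone, at 0.38, 0.45 and 0.36. Set against the median of all genes, Klf3, Klf4 and Klf7 stood at 0.08, 0.14 and 0.06 with TMM and at 0.08, 0.14 and 0.06 with library sizes alone. Klf10, Klf6 and Klf15 stood 0.11, 0.34 and 0.97 above that median in both fits, and Klf13 stood at -1.32 in both.

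**Figure D1:**
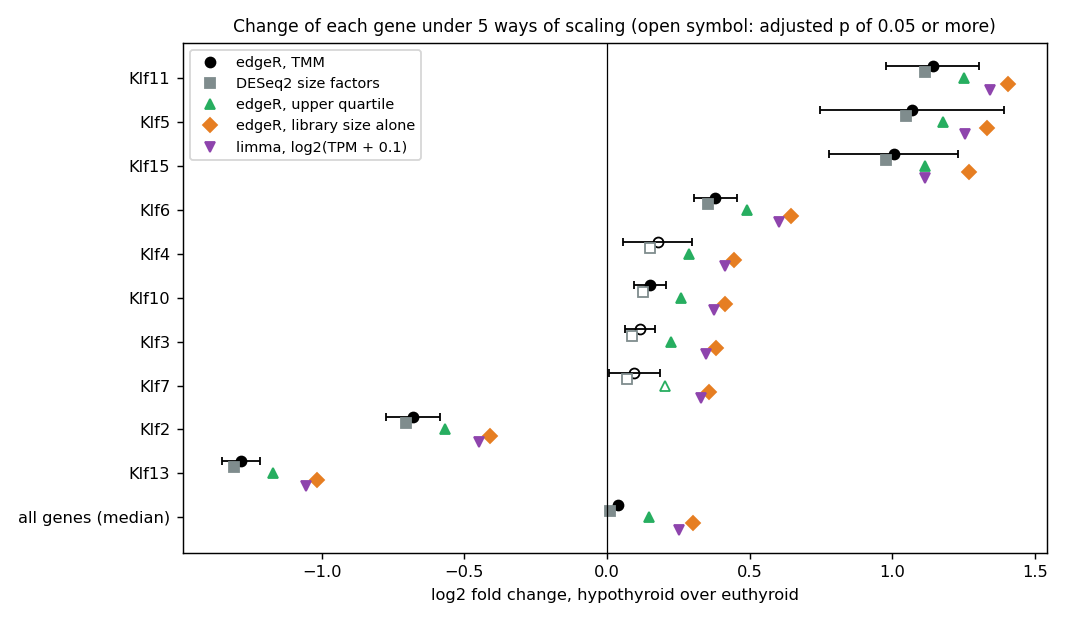
Log2 fold change, hypothyroid over euthyroid, of each gene and the median of all tested genes under 5 ways of scaling and testing. Filled symbols have an adjusted p under 0.05, open symbols do not, and bars on the black circles are the approximate SE; Klf13 and Klf2 stay left of 0 and the other genes right of it in all 5.

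Sequence just upstream of the annotated start is shown for 2 genes that rose and 2 that fell, so that the starts can be compared by eye. The windows come from RefSeq on build GRCm38.p6, which is the build the submitters' processing notes name, and each was shortened where GENCODE places the start further upstream. They are chr12:24651121-24651273 (plus strand) for Klf11, chr6:90462326-90462575 (plus strand) for Klf15, chr8:72318812-72319032 (plus strand) for Klf2 and chr7:63938916-63939165 (minus strand) for Klf13. Capitals mark GC boxes (GGGCGG or, read on the other strand, CCGCCC) and E-boxes (CACGTG, which reads the same on both strands).
Klf11: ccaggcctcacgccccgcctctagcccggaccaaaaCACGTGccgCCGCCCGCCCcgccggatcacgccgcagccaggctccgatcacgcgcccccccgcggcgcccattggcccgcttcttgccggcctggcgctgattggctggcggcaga
Klf15: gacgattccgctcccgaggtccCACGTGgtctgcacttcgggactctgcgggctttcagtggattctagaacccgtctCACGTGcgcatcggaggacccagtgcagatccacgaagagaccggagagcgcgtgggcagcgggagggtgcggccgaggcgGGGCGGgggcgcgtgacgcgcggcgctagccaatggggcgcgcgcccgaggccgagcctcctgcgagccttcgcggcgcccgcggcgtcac
Klf2: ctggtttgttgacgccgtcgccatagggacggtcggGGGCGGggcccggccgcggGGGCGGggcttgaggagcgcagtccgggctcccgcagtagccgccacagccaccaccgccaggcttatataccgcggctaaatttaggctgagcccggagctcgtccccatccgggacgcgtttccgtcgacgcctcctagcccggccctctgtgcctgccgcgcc
Klf13: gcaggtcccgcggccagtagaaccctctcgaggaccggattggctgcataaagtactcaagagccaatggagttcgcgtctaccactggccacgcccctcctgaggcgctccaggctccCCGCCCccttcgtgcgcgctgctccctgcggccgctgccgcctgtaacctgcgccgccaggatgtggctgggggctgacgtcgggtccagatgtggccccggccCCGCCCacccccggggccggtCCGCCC
The Klf15 stretch held 2 E-boxes and 1 GC box, and the Klf11 stretch 1 E-box and 2 GC boxes. The Klf2 stretch held 2 GC boxes and the Klf13 stretch 3, and neither held CACGTG. Over 250 bases before the start, 6.02% of 32851 mouse windows held at least 1 E-box and 32.7% at least 1 GC box on either strand. Windows were found for 8 of the 10 genes. All 8 held a GC box, and Klf4, Klf6, Klf11 and Klf15 an E-box. The GC content of these 8 windows was 59.2% to 78.4%, above the median of 52.4% over all windows, and both motifs are rich in G and C. A direct repeat of AGGTCA with 4 bases between the copies, a form of thyroid hormone response element, and the palindromic glucocorticoid response element were searched on both strands and matched in none of these 8 windows. They matched in 0.0152% and 0.00913% of all windows. For Klf15, RefSeq also has a start further upstream, at position 90461043 of chromosome 6, and the window shown lies before the start that GENCODE gives. The Klf7 window likewise lies within the gene as RefSeq and GENCODE give it, downstream of their outermost starts.

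The plot of levels by library shows the 10 genes on their own scales.

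**Figure D2:**
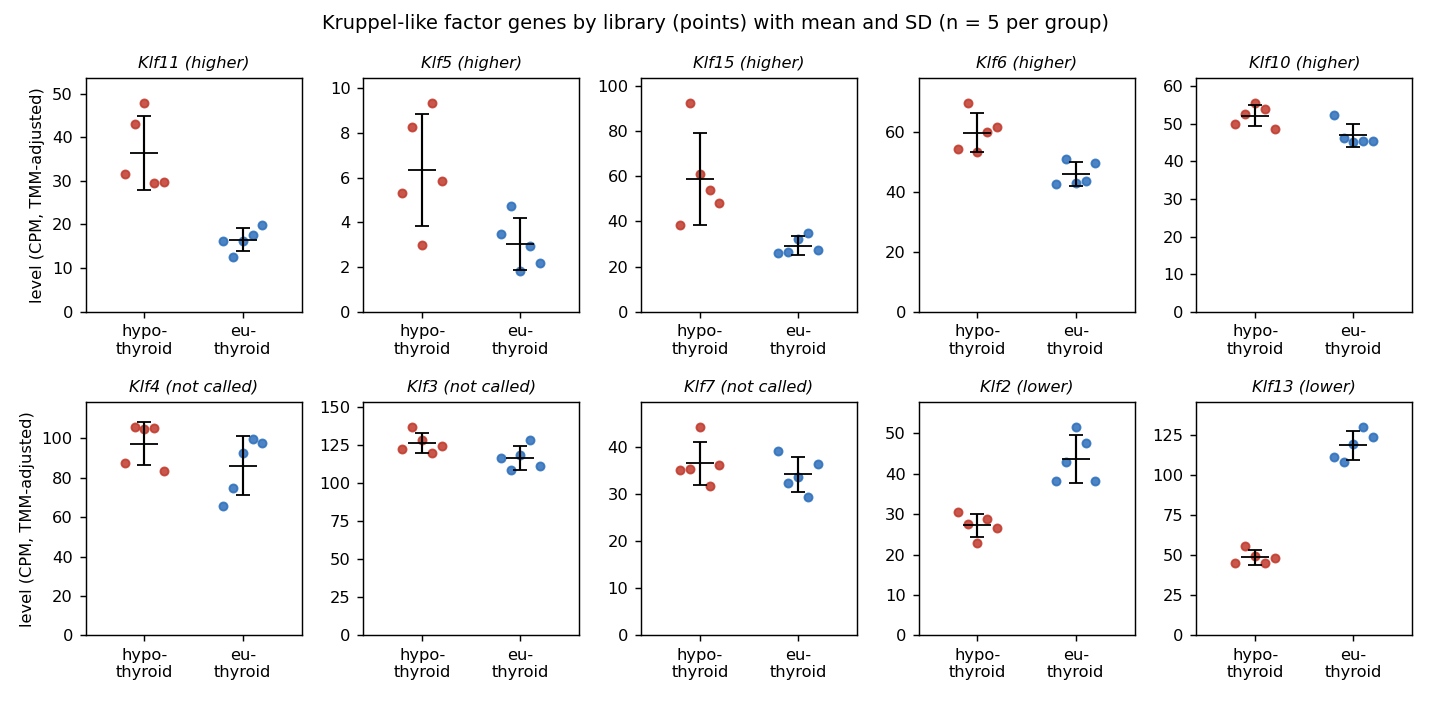
Level of each gene in CPM (TMM-adjusted, each axis from 0) in the 5 hypothyroid (red) and 5 euthyroid (blue) libraries, with bars for mean and SD. The groups are apart in Klf11, Klf15, Klf6, Klf2 and Klf13 and overlap in Klf5, Klf10, Klf4, Klf3 and Klf7.

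Among the genes with activating regions, Klf2 fell while its close relative Klf4 did not pass the test. Klf2 keeps endothelial cells quiescent and is induced there by blood flow. The gene spans 72319062 to 72321654 on chromosome 8. Klf2 had 30.6, 27.7, 22.8, 28.7 and 26.6 CPM in hypothyroid libraries 1 to 5, against 38.2, 42.8, 51.6, 47.7 and 38.2 CPM in euthyroid libraries 1 to 5. Every hypothyroid library was below every euthyroid library, with the lowest value in hypothyroid library 3. Klf2 averaged 27.3 ± 2.90 CPM in hypothyroid and 43.7 ± 5.91 CPM in euthyroid libraries (SD, n = 5 each), a 1.601-fold decrease. The log2 fold change was -0.68 (SE 0.094, edgeR adjusted p = 1.5e-05). With library sizes alone the log2 fold change was -0.41, a value over 1.5 times smaller (edgeR adjusted p = 0.00105, in a range of 1.24e-11 to 0.00201 over the alternatives).

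Endothelial markers moved with Klf2. Of 8 such markers 6 fell, none rose and 2 did not pass. With library sizes alone, 4 of the 8 fell, none rose and 4 did not pass. Their summed level was 610 to 712 CPM in hypothyroid and 760 to 960 CPM in euthyroid libraries. Klf2 amounted to 4.16% ± 0.542 of that sum in hypothyroid and 5.02% ± 0.655 in euthyroid libraries (SD, n = 5 each), and the groups overlapped in this ratio. Its part in the fall of Klf2 was not tested. Of 4 genes known to respond to Klf2 or Klf4 in endothelial or lymphoid cells, 3 fell and 1, the vasoconstrictor gene Edn1 that Klf2 represses, did not pass. S1pr1, a sphingosine 1-phosphate receptor that Klf2 induces in T cells, had 43.2 ± 3.02 CPM in hypothyroid and 119.5 ± 14.3 CPM in euthyroid libraries (SD, n = 5 each, log2 fold change -1.47, edgeR adjusted p = 4.11e-10). Thbd, which encodes the anticoagulant receptor thrombomodulin, had 16.8 ± 2.64 CPM in hypothyroid and 29.1 ± 2.50 CPM in euthyroid libraries (log2 fold change -0.79, edgeR adjusted p = 3.43e-06). Scaled by library sizes alone, 2 of the 4 were lower and 1 higher.

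The MAP kinase route that induces Klf2 and Klf4 in endothelium was split. Of its 6 listed genes 2 rose and 4 fell. Mapk7, the kinase ERK5, averaged 39.7 ± 4.36 CPM in hypothyroid and 28.45 ± 1.78 CPM in euthyroid libraries (SD, n = 5 each; log2 fold change 0.48, edgeR adjusted p = 3.37e-05). Mef2a, a MADS-box factor that the route activates, averaged 134 ± 6.58 CPM in hypothyroid and 184 ± 13.8 CPM in euthyroid libraries (log2 fold change -0.46, and -0.19 with library sizes alone, edgeR adjusted p = 2.38e-06 and 0.00297). On library sizes alone, 2 of the 6 rose, 2 fell and 2 did not pass.

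Klf4 drives the late differentiation of barrier epithelia and is also made in endothelium and smooth muscle. Its locus is on chromosome 4 from 55527137 to 55532475. Klf4 had 87.2, 105.6, 104.4, 105.3 and 83.5 CPM in hypothyroid libraries 1 to 5, against 65.65, 74.8, 92.3, 99.4 and 97.7 CPM in euthyroid libraries 1 to 5. The groups overlapped, and euthyroid libraries 1 and 2 were the lowest of all 10. The log2 fold change was 0.18 (SE 0.12, edgeR adjusted p = 0.205, in a range of 0.00245 to 0.468 over the alternatives). Relative to the endothelial marker sum, Klf4 stood at 14.8% ± 1.87 in hypothyroid and 9.86% ± 1.58 in euthyroid libraries (SD, n = 5 each), with no overlap between the groups. The sum itself was lower in hypothyroid libraries, at 610 to 712 CPM, against 760 to 960 CPM in euthyroid libraries. A gene with an unchanged level would therefore also rise in this ratio. The level of Klf4 per endothelial cell was not tested.

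Klf5 promotes the proliferation of epithelial progenitors, as in intestinal crypts. The gene spans 99298691 to 99313412 on chromosome 14. Klf5 was the scarcest of the 10 genes, with 62 to 202 counts per library in hypothyroid and 32 to 88 in euthyroid tissue. Klf5 had 5.33, 8.27, 2.99, 9.32 and 5.84 CPM in hypothyroid libraries 1 to 5, against 3.46, 4.74, 1.81, 2.93 and 2.16 CPM in euthyroid libraries 1 to 5. Of the hypothyroid libraries, 4 were above all euthyroid ones, and library 3 lay within the euthyroid range. The rise was 2.10-fold, with a log2 fold change of 1.07 (SE 0.32, edgeR adjusted p = 0.0107). Its spread was wide in both groups, with a coefficient of variation of 39.5% in hypothyroid and 38.4% in euthyroid libraries. Of 6 general epithelial markers 4 rose and 1 fell, at a summed level of 723 to 848 CPM in hypothyroid and 660 to 716 CPM in euthyroid libraries. Their part in the rise of Klf5 was not tested.

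Klf6 is expressed in most tissues and is induced by injury. In the genome it lies on chromosome 13, from 5861489 to 5870393. Klf6 had 54.25, 69.4, 53.2, 59.96 and 61.5 CPM in hypothyroid libraries 1 to 5, against 42.5, 50.75, 42.8, 43.7 and 49.45 CPM in euthyroid libraries 1 to 5. The lowest hypothyroid value, in library 3, was just above the highest euthyroid value, in library 2. The rise was 1.30-fold, at 0.38 on the log2 scale (SE 0.076, edgeR adjusted p = 0.000385), and 0.64 with library sizes alone.

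Klf7, a factor of developing sensory neurons, lies on chromosome 1 from 64029448 to 64122345. Its exons overlap the antisense genes Gm26649 and Gm13748 in GENCODE, and strand use in counting is not given in the sources used here, so its reads may include theirs. Klf7 had 35.1, 35.4, 44.3, 31.85 and 36.3 CPM in hypothyroid libraries 1 to 5, against 39.2, 32.4, 33.7, 29.4 and 36.5 CPM in euthyroid libraries 1 to 5. The groups overlapped widely, and hypothyroid library 3 held the highest value. The log2 fold change was 0.10 (SE 0.090, edgeR adjusted p = 0.353, in a range of 0.00191 to 0.837 over the alternatives).

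Rapid induction is a feature that Klf2, Klf4, Klf6 and Klf10 share with the immediate early genes. Of 12 listed immediate early genes other than KLFs, 8 fell, none rose and 4 did not pass. Ier2 averaged 27.5 ± 2.31 CPM in hypothyroid and 51.4 ± 3.98 CPM in euthyroid libraries (SD, n = 5 each; log2 fold change -0.90, edgeR adjusted p = 1.3e-08). Zfp36, whose product destabilises cytokine mRNAs, averaged 16.8 ± 2.33 CPM in hypothyroid and 30.1 ± 4.64 CPM in euthyroid libraries (log2 fold change -0.84, edgeR adjusted p = 1.37e-05). Of the KLF genes in that group, Klf2 fell with them, whereas Klf6 and Klf10 rose and Klf4 did not pass. With library sizes alone, 6 of the 12 fell and none rose.

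Among the CtBP-binding repressors, Klf3 did not pass the test, Klf12 fell and Klf8 rose. Klf8, outside the set of 10, was scarce, at 1.93 ± 0.380 CPM in hypothyroid and 1.24 ± 0.0802 CPM in euthyroid libraries (SD, n = 5 each). Its log2 fold change was 0.64 (edgeR adjusted p = 0.00495). Klf3 restrains fat cell differentiation. The gene spans 64803521 to 64832901 on chromosome 5, and its exons overlap the antisense gene Gm20033 in GENCODE. Klf3 had 122, 137, 129, 119.7 and 124 CPM in hypothyroid libraries 1 to 5, against 116, 108, 119, 128 and 111 CPM in euthyroid libraries 1 to 5. The groups overlapped through euthyroid library 4. The log2 fold change was 0.12 (SE 0.053, edgeR adjusted p = 0.0609), and the adjusted p ran from 2.28e-06 to 0.201 over the alternatives. Without hypothyroid library 4 it was 0.0382 and without euthyroid library 4 it was 0.0208. Klf12, outside the set of 10, averaged 66.5 ± 5.24 CPM in hypothyroid and 90.9 ± 5.10 CPM in euthyroid libraries (SD, n = 5 each; log2 fold change -0.45, edgeR adjusted p = 4.95e-06). Its log2 fold change was -0.19 with library sizes alone and -0.24 to -0.18 with limma.

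The Sin3A-binding repressors held rises as well as the largest fall of the set. Klf13, first described as an activator of a chemokine gene in T cells and also needed in the developing heart, fell. Its locus is on chromosome 7 from 63886351 to 63938915. Klf13 had 45.1, 56.1, 49.6, 45.0 and 48.0 CPM in hypothyroid libraries 1 to 5, against 111, 108, 119.6, 129.9 and 124 CPM in euthyroid libraries 1 to 5. Every hypothyroid library was far below every euthyroid one, and library 2 was the highest of the hypothyroid libraries. Klf13 averaged 48.7 ± 4.53 CPM in hypothyroid and 119 ± 8.92 CPM in euthyroid libraries (SD, n = 5 each), with a log2 fold change of -1.28 (SE 0.067, edgeR adjusted p = 2.43e-10). Leaving out any single library gave -1.34 to -1.25.

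Klf11, also called TIEG2, is induced early by TGF-beta and regulates the insulin gene in pancreatic beta cells. The gene spans 24651371 to 24662782 on chromosome 12. Klf11 had 31.7, 43.0, 47.7, 29.6 and 29.7 CPM in hypothyroid libraries 1 to 5, against 16.3, 12.55, 16.1, 17.6 and 19.8 CPM in euthyroid libraries 1 to 5. Hypothyroid libraries 2 and 3 stood above the other 3, and all 5 were above every euthyroid library. Klf11 averaged 36.3 ± 8.45 CPM in hypothyroid and 16.5 ± 2.63 CPM in euthyroid libraries (SD, n = 5 each), with a log2 fold change of 1.14 (SE 0.16, edgeR adjusted p = 5.92e-05). This was the largest estimate among the 10 genes, next to 1.07 for Klf5, and the order of Klf11 and Klf5 turned without hypothyroid library 3 (1.03 for Klf11 and 1.25 for Klf5) and without euthyroid library 2 (1.04 for Klf11 and 1.28 for Klf5).

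Klf10, also called TIEG1, is the partner of Klf11 in the early response to TGF-beta and is made in bone and cartilage cells. It lies on chromosome 15 from 38291464 to 38300711. Klf10 had 50.04, 52.6, 55.45, 53.9 and 48.7 CPM in hypothyroid libraries 1 to 5, against 52.35, 46.3, 45.3, 45.35 and 45.4 CPM in euthyroid libraries 1 to 5. The groups overlapped through euthyroid library 1 alone. Klf10 passed by a small margin, with a log2 fold change of 0.15 (SE 0.056, edgeR adjusted p = 0.0237, in a range of 1.11e-05 to 0.0706 over the alternatives). The call was lost with DESeq2 (adjusted p = 0.0602), without hypothyroid library 3 (0.0576) and without euthyroid library 2 (0.0572), 3 (0.0706), 4 (0.0668) or 5 (0.0605). Without euthyroid library 1 the adjusted p was 0.00558.

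Genes of the TGF-beta pathway that induces Klf10 and Klf11 moved both ways, with 5 of 11 up, 5 down and 1 not passing. The ligand gene Tgfb3 averaged 167.5 ± 7.78 CPM in hypothyroid and 84.2 ± 4.67 CPM in euthyroid libraries (SD, n = 5 each; log2 fold change 0.99, edgeR adjusted p = 1.06e-10). The receptor gene Tgfbr2 averaged 398 ± 22.2 CPM in hypothyroid and 689 ± 58.3 CPM in euthyroid libraries (log2 fold change -0.79, edgeR adjusted p = 1.83e-08). Bone markers, of which all 5 fell, had a summed level of 73 to 106 CPM in hypothyroid and 1010 to 1530 CPM in euthyroid libraries. Of 4 cartilage markers, 2 fell and 1 rose, and they summed to 12200 to 13100 CPM in hypothyroid and 30200 to 35300 CPM in euthyroid libraries. Their part in the levels of Klf10 and Klf11 was not tested.

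Of 12 genes for cofactors and ubiquitin ligases that act on KLF proteins, 6 rose, 2 fell and 4 did not pass. Over all tested genes, 37.7% were higher and 34.1% lower. Ctbp2, a corepressor of the Klf3 group, averaged 86.2 ± 4.75 CPM in hypothyroid and 64.5 ± 3.55 CPM in euthyroid libraries (SD, n = 5 each; log2 fold change 0.42, edgeR adjusted p = 3.82e-06). Kat2b, the acetyltransferase PCAF, averaged 71.7 ± 8.50 CPM in hypothyroid and 188.9 ± 9.64 CPM in euthyroid libraries (log2 fold change -1.40, edgeR adjusted p = 2.66e-10). By library sizes alone, 10 of the 12 rose and 1 fell, beside 58.2% of all tested genes higher and 19.7% lower.

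Klf15 rose, with the widest spread between hypothyroid libraries of any of the 10 genes but Klf5. It is induced by glucocorticoids, follows the circadian clock, and in liver and muscle controls amino acid breakdown. RefSeq places it on chromosome 6 from 90461043 to 90491803. Klf15 had 38.4, 92.2, 61.1, 54.05 and 48.1 CPM in hypothyroid libraries 1 to 5, against 25.8, 26.2, 32.2, 34.8 and 27.3 CPM in euthyroid libraries 1 to 5. All hypothyroid libraries were above all euthyroid ones, and hypothyroid library 2 stood well above the rest. Klf15 averaged 58.8 ± 20.45 CPM in hypothyroid and 29.3 ± 4.01 CPM in euthyroid libraries (SD, n = 5 each), with a coefficient of variation of 34.8% in hypothyroid and 13.7% in euthyroid libraries. The log2 fold change was 1.01 (SE 0.23, edgeR adjusted p = 0.00283), and 0.79 without hypothyroid library 2 (edgeR adjusted p = 0.000306, in a range of 5.08e-05 to 0.0101 over the alternatives).

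Among 10 genes of glucocorticoid reception, activation and response, 3 rose, 5 fell and 2 did not pass. The receptor genes fell. Nr3c1, the glucocorticoid receptor gene, averaged 146.6 ± 5.91 CPM in hypothyroid and 266 ± 9.11 CPM in euthyroid libraries (SD, n = 5 each; log2 fold change -0.86, edgeR adjusted p = 1.21e-10). Nr3c2, the mineralocorticoid receptor gene, averaged 27.6 ± 2.17 CPM in hypothyroid and 81.4 ± 6.12 CPM in euthyroid libraries (log2 fold change -1.56, edgeR adjusted p = 2.17e-11). From the same list, Pdk4 and Hsd11b1 fell (log2 fold changes -0.87 and -5.03, edgeR adjusted p = 7.72e-05 and 6.47e-09). Hsd11b2 rose (log2 fold change 1.40, edgeR adjusted p = 2.22e-07). Of the hypothyroid libraries, Pdk4 was highest in library 2 and lowest in library 3, whereas Hsd11b1 and Hsd11b2 were highest in library 5. The glucocorticoid-responsive genes described next were chosen after their values were seen.

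Fkbp5, a chaperone gene that glucocorticoids induce, had 9.49, 67.0, 27.9, 27.8 and 18.3 CPM in hypothyroid libraries 1 to 5, against 4.92, 8.30, 6.94, 10.2 and 7.04 CPM in euthyroid libraries 1 to 5. The groups overlapped in library 1 of the hypothyroid group. From highest to lowest, the hypothyroid libraries ran 2, 3, 4, 5, 1 for Fkbp5, which is the order they had for Klf15. Tsc22d3, the gene of the glucocorticoid-induced leucine zipper protein, had 67.9, 196, 108, 104.5 and 83.1 CPM in hypothyroid libraries 1 to 5, in that order again, against 56.9 to 98.5 CPM in euthyroid libraries. Zbtb16, another glucocorticoid-induced gene, had 22.9, 142, 95.0, 43.1 and 44.7 CPM in hypothyroid libraries 1 to 5, against 10.97 to 28.2 CPM in euthyroid libraries. Its hypothyroid libraries ran 2, 3, 5, 4, 1. Fkbp5 and Zbtb16 rose (log2 fold changes 2.01 and 1.87, edgeR adjusted p = 0.00723 and 0.012), and Tsc22d3 did not pass (log2 fold change 0.48, edgeR adjusted p = 0.169, in a range of 0.0312 to 0.401 over the alternatives). Tsc22d3 stood at 0.19 without hypothyroid library 2, and was called higher with library sizes alone (0.75) and in all 4 limma fits. Per1, a clock gene that glucocorticoids induce, had 53.4, 136, 128, 64.4 and 58.8 CPM in hypothyroid libraries 1 to 5, the order of Klf15 once more, against 42.1 to 173 CPM in euthyroid libraries, and did not pass (log2 fold change -0.36, edgeR adjusted p = 0.529, in a range of 0.276 to 0.996 over the alternatives). Sgk1, a kinase gene that glucocorticoids induce, fell, with 284 to 454 CPM in hypothyroid and 761 to 1418 CPM in euthyroid libraries (log2 fold change -1.66, edgeR adjusted p = 9.78e-05). Its hypothyroid libraries ran 2, 3, 5, 1, 4. Of these 5 genes, which all had their highest hypothyroid value in library 2 as Klf15 did, 2 rose, 1 fell and 2 did not pass. Klf9, which glucocorticoids also induce, was highest in hypothyroid library 2 and lowest in library 1 as well. In the euthyroid group, Klf15, Klf9, Fkbp5, Zbtb16, Tsc22d3, Per1 and Sgk1 were all highest in library 4 and lowest in library 1, as was Klf4. The share of all tested genes with the same order, or the same highest or lowest library, was not computed for either group. Klf3, Klf4, Klf6 and Klf13 were also highest in hypothyroid library 2, with their lowest values in libraries 4, 5, 3 and 4. The highest hypothyroid library had 1.14 (Klf3), 1.26 (Klf4), 1.3 (Klf6) and 1.25 (Klf13) times the level of the lowest. That ratio was 2.4 for Klf15, 2.38 for Klf9 and 7.06 for Fkbp5. For Zbtb16 it was 6.2, for Tsc22d3 2.89, for Per1 2.55 and for Sgk1 1.6. A common source of these peaks was not tested.

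**Figure D3:**
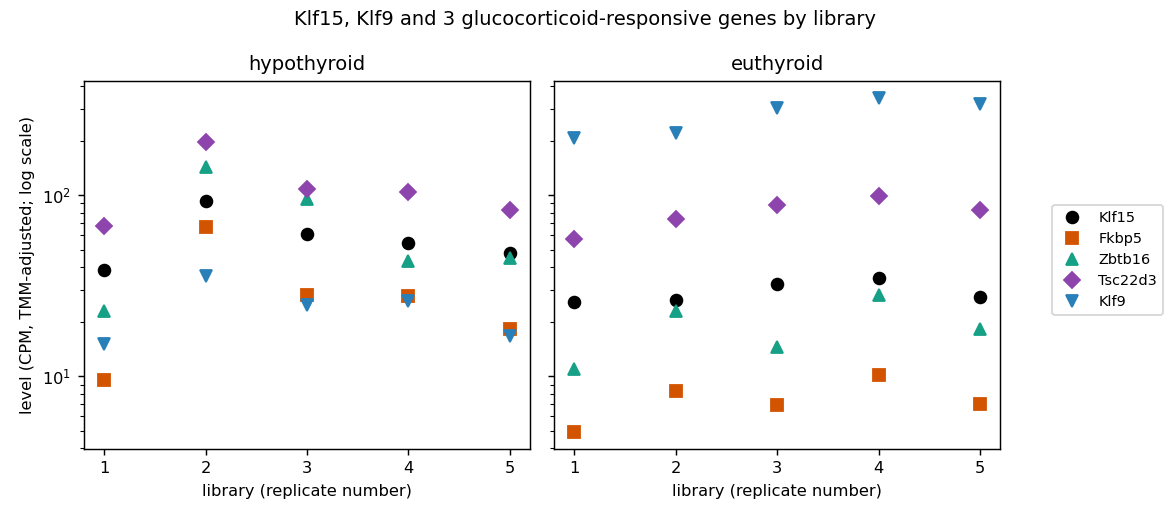
Level in CPM (log axis) of Klf15, Klf9, Fkbp5, Zbtb16 and Tsc22d3 in each of the 5 hypothyroid (left) and 5 euthyroid (right) libraries, with replicate number on the x axis. In hypothyroid tissue all 5 genes are highest in library 2 and lowest in library 1, and Klf9 lies far lower than in euthyroid tissue.

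Genes that Klf15 regulates in liver or muscle were mixed, with 1 of 4 up, 2 down and 1 not passing. Slc2a4, the insulin-responsive glucose transporter gene, averaged 6.34 ± 0.546 CPM in hypothyroid and 4.01 ± 0.701 CPM in euthyroid libraries (SD, n = 5 each; log2 fold change 0.66, edgeR adjusted p = 0.000313). Bcat2, an enzyme gene of branched-chain amino acid breakdown, averaged 49.3 ± 4.02 CPM in hypothyroid and 62.9 ± 4.51 CPM in euthyroid libraries (log2 fold change -0.35, edgeR adjusted p = 0.000146), and was not called with library sizes alone (edgeR adjusted p = 0.198, in a range of 4.63e-07 to 0.198 over the alternatives). On that scaling 2 of the 4 were higher and none lower. Skeletal muscle and fat, tissues rich in Klf15, left little trace. The summed level of 4 muscle markers was 0.386 to 1.02 CPM in hypothyroid and 0.431 to 0.918 CPM in euthyroid libraries. That of 4 fat cell markers was at most 0.14 CPM in hypothyroid and 0.27 CPM in euthyroid libraries.

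To ask whether close relatives differed in response, the log2 ratio of their estimated counts was taken within each library, which removes library scaling. This was done for 5 pairs. The ratio of Klf2 to Klf4 was -1.83 ± 0.264 in hypothyroid and -0.967 ± 0.243 in euthyroid libraries (SD, n = 5 each), a difference of -0.865 (SE 0.16), or a 1.82-fold shift toward Klf4. The ratio of Klf10 to Klf11 was 0.549 ± 0.281 in hypothyroid and 1.52 ± 0.268 in euthyroid libraries, a difference of -0.974 (SE 0.17), or a 1.96-fold shift toward Klf11. The ratio of Klf3 to Klf12 was 0.928 ± 0.137 in hypothyroid and 0.359 ± 0.0855 in euthyroid libraries, a difference of 0.569 (SE 0.072). These ratios and that of Klf13 to Klf9 did not overlap between the groups. Levels of 57.9% of all tested genes did not overlap either, and the share of unrelated gene pairs whose ratios separate was not computed. Each of these 4 had an exact two-sided permutation p of 0.00794, the smallest that 5 against 5 libraries allow, and 0.00992 after Benjamini-Hochberg adjustment over the 5 pairs.

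Klf13 is the nearest relative of Klf9 among the 10 genes. Klf9 averaged 23.6 ± 8.29 CPM in hypothyroid and 279 ± 61.55 CPM in euthyroid libraries (SD, n = 5 each; log2 fold change -3.56, edgeR adjusted p = 2.5e-06). Both genes fell, and Klf9 fell more. The log2 ratio of Klf13 to Klf9 was 1.11 ± 0.426 in hypothyroid and -1.21 ± 0.231 in euthyroid libraries, a difference of 2.32 (SE 0.22), so that Klf13 counts exceeded Klf9 counts in every hypothyroid library and were below them in every euthyroid one. The ratio of Klf6 to Klf7 was 0.707 ± 0.281 in hypothyroid and 0.424 ± 0.207 in euthyroid libraries, a difference of 0.284 (SE 0.16) that did not pass (exact permutation p = 0.119, adjusted p = 0.119). Without hypothyroid library 3 this difference was 0.394 and its adjusted p from the exact permutation test was 0.0238.

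**Figure D4:**
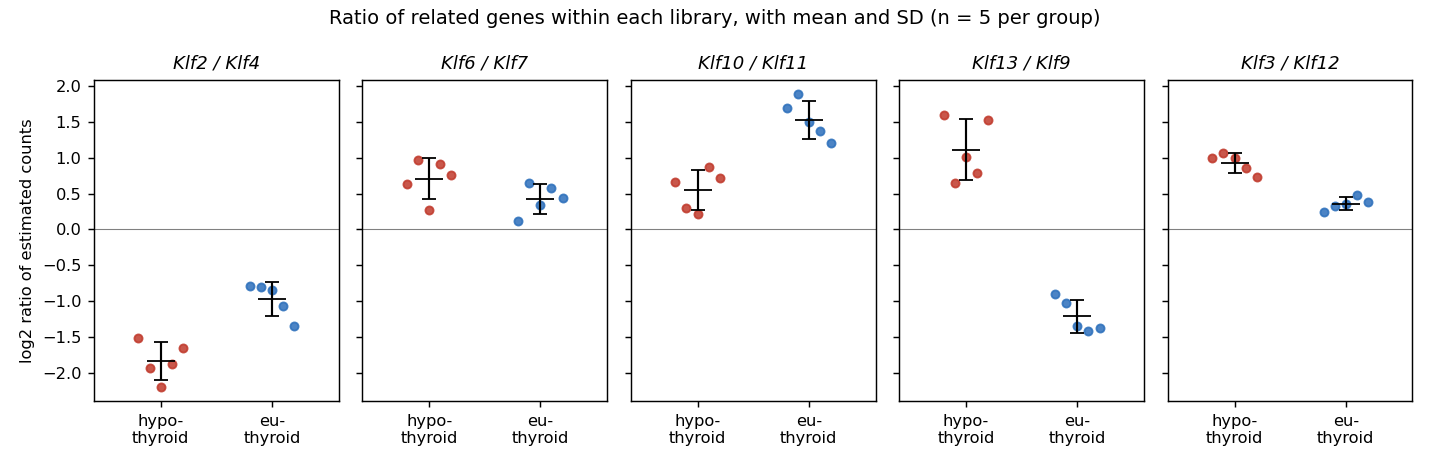
Log2 ratio of the estimated counts of 5 pairs of related genes in each hypothyroid (red) and euthyroid (blue) library, with mean and SD. The groups are apart in every pair but Klf6 over Klf7, and the ratio of Klf13 to Klf9 is above 0 in hypothyroid and below 0 in euthyroid libraries.

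Levels were compared between genes on the authors' TPM scale (transcript abundance adjusted for gene length). In hypothyroid tissue Klf3 and Klf4 led the 10 genes, at 87 ± 4.84 and 85.4 ± 8.51 TPM, followed by Klf15 at 54.5 ± 18.5, Klf10 at 45.6 ± 1.75, Klf2 at 40.7 ± 4.77 and Klf6 at 37.7 ± 4.26 TPM (SD, n = 5 each). The ranges of neighbours in that order overlapped, down to Klf6, whose lowest library stood above the highest of Klf11. Below the gap came Klf11 at 24.3 ± 5.17, Klf13 at 20.2 ± 1.73, then, with no overlap with Klf13, Klf7 at 13.5 ± 1.48 and Klf5 at 9.99 ± 3.97 TPM. In euthyroid tissue the order was Klf3 at 68.4 ± 3.68, Klf4 at 64.5 ± 10.2, Klf2 at 55.6 ± 6.88, Klf13 at 42.0 ± 2.42, Klf10 at 35.2 ± 2.76, Klf6 at 24.8 ± 2.44, Klf15 at 24.2 ± 2.73, Klf7 at 10.8 ± 1.23, Klf11 at 9.41 ± 1.39 and Klf5 at 4.07 ± 1.65 TPM. There the ranges of Klf2 and Klf13, of Klf10 and Klf6, of Klf15 and Klf7, and of Klf11 and Klf5 did not overlap, and those of the other neighbours did. Klf9 averaged 14 ± 4.78 TPM in hypothyroid tissue, between Klf13 and Klf7, and 141 ± 28.8 TPM in euthyroid tissue, above all 10 genes.

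**Figure D5:**
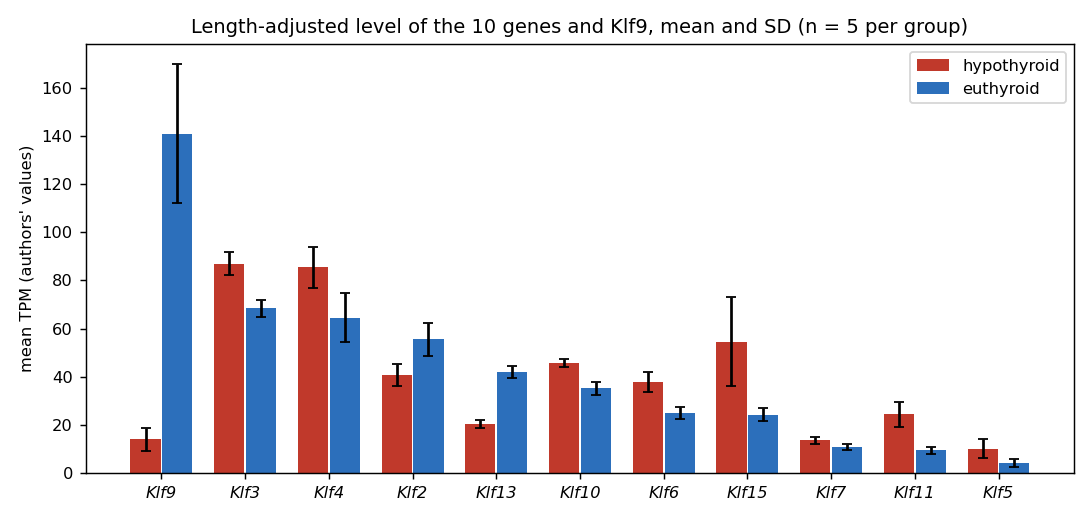
Mean TPM with SD of the 10 genes and Klf9 in hypothyroid (red) and euthyroid (blue) libraries, in order of the euthyroid level. Klf9 has the tallest euthyroid bar at 141 TPM and stands at 14 TPM in hypothyroid tissue, where Klf3 and Klf4 are the most abundant.

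As a share of the summed TPM of the 10 genes, which does not depend on scaling, Klf13 held 4.83% ± 0.252 in hypothyroid and 12.4% ± 0.372 in euthyroid libraries (SD, n = 5 each). Klf2 held 9.79% ± 1.57 in hypothyroid and 16.4% ± 1.64 in euthyroid libraries. Klf15 held 12.8% ± 3.15 in hypothyroid and 7.12% ± 0.493 in euthyroid libraries, and Klf11 held 5.78% ± 1.05 in hypothyroid and 2.78% ± 0.398 in euthyroid libraries. For these 4 genes the shares did not overlap between the groups, whereas those of the other 6 genes did. In CPM, 57.9% of all tested genes did not overlap. The shares are tied together by their common sum. It was 419 ± 36.1 TPM in hypothyroid and 339 ± 15.5 TPM in euthyroid libraries, with no overlap. Klf3 held 20.8% ± 1.38 in hypothyroid and 20.2% ± 0.919 in euthyroid libraries.

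Of the other 16 KLF and SP genes in the table, 12 passed the filter on low counts, of which 6 rose, 4 fell and 2 did not pass. Over all tested genes, 71.8% were called, 37.7% higher and 34.1% lower. Klf8, Klf16, Sp3, Sp4, Sp5 and Sp6 rose, and Klf9, Klf12, Sp2 and Sp7 fell. Klf16, another Sin3A-binding repressor, averaged 18.3 ± 1.25 CPM in hypothyroid and 11.7 ± 0.828 CPM in euthyroid libraries (SD, n = 5 each; log2 fold change 0.65, edgeR adjusted p = 1.7e-06). Sp7, the osteoblast factor osterix, averaged 7.97 ± 2.86 CPM in hypothyroid and 25.4 ± 4.40 CPM in euthyroid libraries (log2 fold change -1.67). Sp1 had a log2 fold change of -0.09 and did not pass, whereas with library sizes alone it was called higher, at 0.17. Sp2, at -0.36 with TMM, was not called with library sizes alone, at -0.09. Library sizes alone gave 8 of the 12 as higher and 3 as lower, beside 58.2% of all tested genes higher and 19.7% lower.

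Genes whose levels followed the same course over the 10 libraries were sought among 11975 genes that averaged 5 CPM or more, by the root-mean-square difference of log2 CPM after each gene was centred on its mean. The measure is led by the difference between the groups. Nearest to Klf13 were Aff1, Slco3a1 and Atp2a2, at 0.06, 0.07 and 0.08 on the log2 scale, with log2 fold changes of -1.32, -1.34 and -1.28. Nearest to Klf11 were Fgfbp3, Zfp395 and Tox, at 0.16, 0.16 and 0.17, with log2 fold changes of 1.14, 1.11 and 1.00. Atp2a2, the calcium pump of the endoplasmic reticulum, averaged 193 ± 5.74 CPM in hypothyroid and 470 ± 32 CPM in euthyroid libraries (SD, n = 5 each).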

How the data were processed

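The data were a table of 18725 genes in 10 libraries of mouse cochlear tissue, 5 hypothyroid and 5 euthyroid. The submitters' processing notes name RSEM 1.2.12, HISAT2 2.0.4, Bowtie2 2.2.5 and the build GRCm38.p6, and the order of the tools, the annotation and the use of strand are not given in the sources used here. The authors deposited expected counts (estimated reads per gene, which need not be whole), a scaled signal (the estimated count rounded up and multiplied by 1 factor per library), and FPKM and TPM values, per the file headers and the values. After division by the factor, 100% of the signal values were whole within 0.001, and the count test on these reads called 10675 genes.

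Expected counts were rounded and tested with edgeR 4.0.16 (filterByExpr with a minimum count of 10, TMM factors, robust quasi-likelihood fit, group as the only term), p adjusted over 14862 genes, threshold 0.05. SE is the log2 fold change over the square root of F. Fold changes are hypothyroid over euthyroid. Ratios of pairs added 0.5 to each count and used exact permutation tests. DESeq2 1.42.0, limma 3.58.1 on log2(FPKM or TPM + 0.1) or log2(FPKM + 1), R 4.3.3 and Python 3.11.15 were also used, and the fits were tested on simulated data. The simulation changed far fewer genes than were called here, evenly up and down. It therefore does not bear on how scaling set the smaller calls. In the 20 pairs of libraries within groups, the mean chi-square per gene was 5.41 to 15.8, so none was treated as a duplicate. The 10 genes and all lists were chosen with earlier results of these data known. Named genes were all 10, Klf9 and Klf12, the 2 members of each pathway list with the smallest adjusted p, and the 3 genes nearest in course to the called genes with the largest rise and fall. Fkbp5, Zbtb16, Tsc22d3, Per1, Sgk1, Pdk4, Hsd11b1, Hsd11b2, Edn1, Otor, Otos, Coch, Klf8 and Sp1 to Sp7 fall outside this rule and were named after their values were seen. Promoter sequences come from RefSeq, build GRCm38.p6, found for 8 of the 10 genes by symbol.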

Additional observations from a re-analysis of the deposited data

Results flagged for a closer look

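In Klf10, euthyroid library 1 stood apart from the other euthyroid libraries. It had 52.4 CPM and the other 4 had 45.3 to 46.3 CPM, so the gap to its nearest neighbour took up 0.856 of the whole range of the group, against a limit of 0.71 (Dixon's test at the 95% level for 5 libraries). It lay within the hypothyroid range of 48.7 to 55.5 CPM. Among 34 groups of 5 values checked this way, chance would flag about 1 in 20.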

How the results depend on the processing

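Among the genes with values in the text, Sp1 and Per1, neither of them called with TMM, changed direction. Sp1 stood at 0.17 with library sizes alone, 0.0166 with upper quartile factors, 0.17 with limma on log2(FPKM + 0.1), filtered or not, 0.13 on log2(TPM + 0.1) and 0.16 on log2(FPKM + 1). Per1 stood at 0.0101 with limma on log2(FPKM + 0.1), filtered or not, and at 0.0027 on log2(FPKM + 1). The number of the 10 genes called higher was 5, and 8 with library sizes alone and with limma on log2(FPKM + 0.1), log2(TPM + 0.1), log2(FPKM + 1) or unfiltered FPKM, where the genes gained were Klf3, Klf4 and Klf7. It was 4 to 6 when single libraries were left out, and 2 genes were called lower throughout. Genes called in all numbered 10294 to 10663 when single libraries were left out and 10392 with the replicate block. Deviations of same-numbered libraries correlated at -0.0843 to 0.146. For replicate 1, at 0.146, the same-numbered library was the best match in both directions, and for the other numbers it was not. These values cannot settle whether replicate numbers pair the libraries. With the replicate block, 5 of the 10 genes were higher and 2 lower. The paired test of the ratios over replicate numbers cannot go below an exact p of 0.0625, so no pair could pass. With this block, the differences of -0.865 (Klf2 to Klf4), -0.974 (Klf10 to Klf11), 2.32 (Klf13 to Klf9) and 0.569 (Klf3 to Klf12) had an adjusted p of 0.0781, from the exact sign-flip test. Leaving out single libraries gave -0.961 to -0.774, -1.06 to -0.885, 2.2 to 2.44 and 0.535 to 0.620, and 0.207 to 0.394 for Klf6 to Klf7. Klf5 had 32 to 202 counts per library, and what depth limits was not compared between genes.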
